A study of Mus musculus with 28 samples.

Results

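The 9 genes described here mark the serotonin neurons of the raphe nuclei and the noradrenaline neurons of the locus coeruleus in the mouse brain. They were chosen by symbol, as 6 raphe genes (Tph2, Slc6a4, Fev, Gata2, Gata3 and Maob) and 3 locus coeruleus genes (Dbh, Slc6a2 and Phox2a), out of 20660 symbols that could be matched to array probes. Each gene was represented by exactly 1 named probe, so no choice among probes was needed, and all 9 probes passed the filter on dim signal, which asked for a signal well above background somewhere in every sectioning series. The RNA came from 3 male mice of the strain C57BL/6J at the age of 3 weeks, with no treatment or genetic change named in the labels, and the brain of each was cut along 1 plane only. The coronal brain gave 12 fractions, the horizontal brain 6 and the sagittal brain 10, each hybridised to 1 array. Coronal fraction 12 may be wider than the rest, because its label also names a following fraction that was pooled with it. No position was measured in more than 1 animal, so mouse and plane cannot be told apart, and every error given below is the scatter among fractions of 1 brain.

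Serotonin is made from tryptophan by tryptophan hydroxylase and aromatic amino acid decarboxylase, packed into vesicles, released, and taken back up by a transporter of the cell membrane. Noradrenaline follows a parallel route from tyrosine through dopamine, with dopamine beta-hydroxylase as the last step and a transporter of the same family for reuptake. The raphe nuclei lie along the midline of the brainstem, from the medulla to the midbrain, whereas the locus coeruleus is a small compact nucleus in the dorsal pons that is present on each side. Other noradrenaline neurons lie in the medulla. Both cell groups are few in number and send axons to most of the brain, while their messenger RNA stays mainly in the cell bodies.

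The level of a gene is given as log2 of its array signal minus log2 of the 75th percentile of that array, so that 0 is the 75th percentile and -4 is close to the typical probe. Levels were compared between fractions of 1 gene and not between genes, since probes differ in brightness. Repeated spots of 1 probe on 1 array had a median SD of 0.056 to 0.0855 log2 where well above background. For the dim probes among these it was 0.093 to 0.168, and for probes not well above background 0.18 to 0.41. These SDs are technical error and do not hold the variation between animals. Where a probe was not well above background in the dimmer fraction, a fold is a lower bound, measured from the dimmest well-detected signal of that array or from the probe itself, whichever is brighter. In bulk fractions, fewer cells of a type and less RNA per cell cannot be told apart.

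The landmark genes placed the fractions. Pcp2, a gene of cerebellar Purkinje cells, stood at 8.67, 8.92, 8.63 and 6.96 in coronal fractions 1 to 4. The dopamine transporter gene Slc6a3 was highest in coronal fraction 5 (3.73), Hcrt, the hypothalamic orexin gene, in fraction 7 (5.66), the striatal receptor gene Drd1 in fraction 9 (1.82), and the olfactory gene Omp in fraction 12 (7.04). The coronal fractions therefore run from the hindbrain end to the olfactory end. Horizontal fraction 1 held the highest level of the pineal gene Tph1 (1.17) and fraction 5 that of Hcrt (4.98), so fractions 1 to 3 are called dorsal and 4 to 6 ventral. No probe was matched to Slc6a5. The neuron markers Snap25, Syt1, Rbfox3 and Tubb3 were well above background on all 28 arrays, at 4.73 or higher.

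For the genes that define the transmitters and for Fev, the proximal promoters are shown because these genes peaked in shared fractions. RefSeq promoters of build GRCm38.p6, reaching from 250 bases before to 50 bases after the transcription start, were available for 7 of the 9 genes, as 8 promoters. Both strands were searched for 4 motifs. The motif of GATA factors was AGATAA, that of ETS factors was CGGAAG, that of homeodomain factors was TAATTA, and the core of the cyclic AMP response element was TGACG. Capitals mark the matches, none of which overlapped another. The sequences are written 5′ to 3′ on the strand of the gene, and their positions are chr10:115184973-115185272 (minus strand) for Tph2, chr11:76998347-76998646 (plus) for Slc6a4, chr1:74885359-74885658 (minus) for Fev and chr2:27165257-27165556 (plus) for Dbh.
Tph2: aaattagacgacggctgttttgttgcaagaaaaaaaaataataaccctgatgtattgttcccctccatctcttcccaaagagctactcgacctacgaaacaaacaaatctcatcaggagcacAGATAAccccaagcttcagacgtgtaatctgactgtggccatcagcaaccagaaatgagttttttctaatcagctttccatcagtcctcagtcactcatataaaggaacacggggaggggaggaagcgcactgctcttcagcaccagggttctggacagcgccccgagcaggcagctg
Slc6a4: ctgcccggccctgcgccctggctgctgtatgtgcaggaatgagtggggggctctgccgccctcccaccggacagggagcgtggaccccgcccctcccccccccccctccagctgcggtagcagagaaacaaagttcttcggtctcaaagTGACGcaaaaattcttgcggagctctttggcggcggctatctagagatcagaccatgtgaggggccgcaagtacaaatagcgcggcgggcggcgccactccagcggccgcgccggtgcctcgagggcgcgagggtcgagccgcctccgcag
Fev: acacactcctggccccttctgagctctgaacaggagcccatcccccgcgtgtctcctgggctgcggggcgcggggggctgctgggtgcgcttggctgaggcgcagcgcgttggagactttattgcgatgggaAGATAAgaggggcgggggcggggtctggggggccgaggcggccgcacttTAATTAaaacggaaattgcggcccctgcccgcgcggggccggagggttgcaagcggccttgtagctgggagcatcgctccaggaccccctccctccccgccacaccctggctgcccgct
Dbh: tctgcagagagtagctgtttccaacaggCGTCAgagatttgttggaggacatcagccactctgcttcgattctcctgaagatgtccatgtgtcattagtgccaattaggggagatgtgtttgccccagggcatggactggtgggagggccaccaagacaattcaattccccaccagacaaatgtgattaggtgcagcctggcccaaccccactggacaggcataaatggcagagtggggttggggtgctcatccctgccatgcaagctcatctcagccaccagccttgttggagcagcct

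The GATA letters AGATAA were present in 2 of the 7 genes, Tph2 (first base 128 bases before the start) and Fev (118 bases before it), while 11.2% of all 32851 promoters of this length held them. Fev also held the homeodomain letters TAATTA, found in 5.29% of promoters, and Slc6a4 and Dbh each held TGACG, found in 20.8%. The ETS letters CGGAAG, present in 16.9% of promoters, were absent from all 8 windows. The promoters of Gata2, Gata3 and Phox2a held none of the 4 motifs. These matches describe letters in a window, and binding was not measured.

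Tph2 encodes the tryptophan hydroxylase of brain neurons. In the coronal series its level was -3.02, -1.51, -2.48, 0.01 and -1.89 in fractions 1 to 5 and was well above background in each. From fraction 6 to fraction 12 it lay between -6.70 and -4.36 and was never well above background. Fraction 5 was at least 7.34-fold over fraction 6, and fraction 4 stood at least 24.1-fold over the lowest fraction. In the sagittal series the 2 middle fractions held the peak, with -0.38 in fraction 5 and -1.99 in fraction 6, against -4.57 in fraction 4 and -5.51 in fraction 7. The step from fraction 4 to fraction 5 was 18.3-fold, measured well above background on both sides, but the slide and the scan day changed at the same place. Horizontal fractions 1 to 6 had Tph2 levels of -3.18, -3.78, -5.59, -1.26, -1.74 and -2.40, and the 3 ventral fractions were all above the 3 dorsal ones.

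Sagittal fractions 9 and 10 also gave Tph2 signals well above background, at -2.05 and -3.08, away from the middle peak. Fraction 9 was the array on which dim probes stood highest relative to the 75th percentile, with a median probe at -2.53 against -4.14 to -2.79 on the other 27 arrays. In the same fraction 9, Slc6a4 was at -4.91 and Fev at -4.83, neither well above background, whereas Gata3 was at -1.39 and well above background. Whether the array scale has a part in the Tph2 value was not tested.

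Slc6a4, the serotonin reuptake transporter, followed Tph2 more closely than any other named gene. Its coronal levels in fractions 1 to 5 were -2.01, -0.88, -2.17, 1.04 and -0.99, and fractions 6 to 12 ranged from -6.07 to -3.50, with only fraction 7 (-3.65) well above background. The step from fraction 5 down to fraction 6 was at least 13.7-fold. In the sagittal series Slc6a4 reached 0.87 in fraction 5 and -0.60 in fraction 6, and fraction 5 was 51.1-fold over fraction 4 (-4.81). Fraction 10 stood at -2.70, and the other 7 fractions at -4.45 or lower. Along the horizontal axis it was -5.62, -5.06 and -6.45 in fractions 1 to 3 and not well above background, then -0.22, -1.01 and -2.03 in fractions 4 to 6. Fraction 4 was at least 21.6-fold over fraction 3.

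Fev, the ETS transcription factor that specifies serotonin neurons, was less sharply placed. It was highest in the same fractions as Tph2, namely coronal 4 (-2.02), horizontal 4 (-3.02) and sagittal 5 (-1.97). Its coronal levels in fractions 1 to 5 lay between -3.07 and -2.02 and those in fractions 6 to 12 between -5.34 and -3.34, so the blocks were separate but close. Sagittal fraction 5 was 4.49-fold over fraction 4. Sagittal fraction 1 was the next highest, at -2.76 and well above background, on the dimmest array, whose 75th percentile of signal was 135.2 against 176.0 to 573.5 elsewhere.

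Gata3, a zinc finger factor active in serotonin neurons and also in GABA neurons of the midbrain, covered a wider stretch. It was highest in coronal fraction 4 (0.23), nearly as high in fraction 5 (-0.17), and still well above background in fraction 6 (-1.77), a fraction in which Tph2 and Slc6a4 were not. In the sagittal series it was well above background in fractions 3 to 7, 9 and 10, with -1.30, -0.70, -0.59 and -1.50 in fractions 4 to 7. In the horizontal series its level went from -3.41 in fraction 1 over -2.17, -1.92, -1.48 and -1.41 to -1.09 in fraction 6. Tph2 and Gata3 had an r of 0.37 over the 6 horizontal fractions and 0.84 over the 12 coronal ones. The 5 midbrain GABA neuron markers had no common peak. Tal1 was highest in the same coronal fractions 4 and 5 (0.49 and 0.51), Zfpm2 in fraction 2 (2.19), and Gad2, an enzyme of GABA synthesis, in fraction 8 (4.47), and their coronal position curves passed with limma (adjusted p = 0.0258, 0.00495 and 0.0415). Zfpm2 was 1.94 higher in fractions 1 to 5 than in fractions 6 to 12 (adjusted p = 0.0276), Tal1 differed by 1.04 (adjusted p = 0.108) and Gad2 by -0.76 (adjusted p = 0.0896). Tal2 was well above background in coronal fraction 3 alone. Sox14 was so in fractions 3 to 5, highest in fraction 4 (-3.49), the peak fraction of Gata3, and it was not tested, since no horizontal fraction was well above background. The summed level of the 5 GABA markers ranged from 9.63 to 16.0 times the 75th percentile in coronal fractions 1 to 5 and from 9.99 to 23.5 in fractions 6 to 12, a sum over probes of unequal brightness. The part of GABA neurons in the Gata3 signal was not tested.

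**Figure D1:**
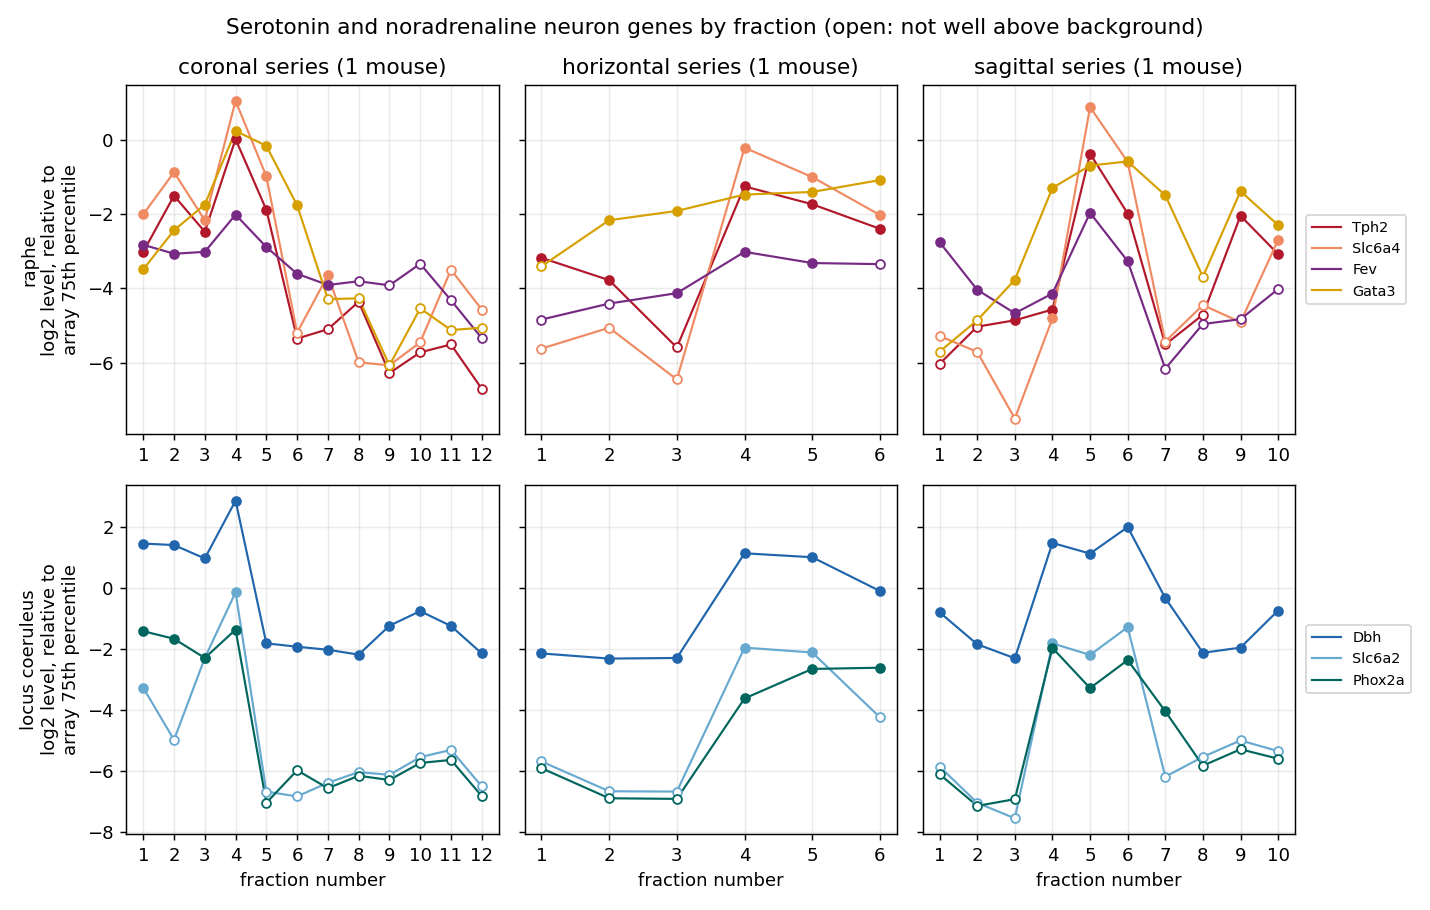
Level of 4 raphe genes (top) and 3 locus coeruleus genes (bottom) by fraction number in the 3 sectioning series, as log2 relative to the 75th percentile of each array. Each point is 1 array, filled where well above background and open where not. Tph2 and Slc6a4 stay high in coronal fraction 5, where Dbh falls to -1.81 and the other locus coeruleus genes are not well above background, and are low in sagittal fraction 4, where those genes are high.

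Gata2 and Maob had broad profiles in whole-brain tissue. Gata2, a factor related to Gata3, passed the background flag in every fraction and stayed between -1.67 and 0.11. It was highest in coronal fraction 1 (0.11) and next in fraction 4 (-0.61), and its highest fraction was 3.00-fold over the lowest of that series. Maob, the monoamine oxidase that serotonin neurons share with astrocytes and other cells, stayed at 1.39 to 2.54 on all 28 arrays. Between its highest and lowest fractions lay 1.66-fold in the coronal brain, 1.49-fold in the horizontal brain and 2.02-fold in the sagittal brain. The summed level of 5 astrocyte markers ranged from 524 to 861 times the 75th percentile over the coronal fractions. It is a sum over probes of unequal brightness, and the brightest, Aldoc, stood at 8.85 to 9.51. Between the highest and lowest coronal fractions lay 1.58-fold for Aldoc, 1.98-fold for Aldh1l1, 2.21-fold for Slc1a3, 4.55-fold for Aqp4 and 6.98-fold for Gfap. The part of astrocytes in the Maob signal was not tested.

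**Figure D2:**
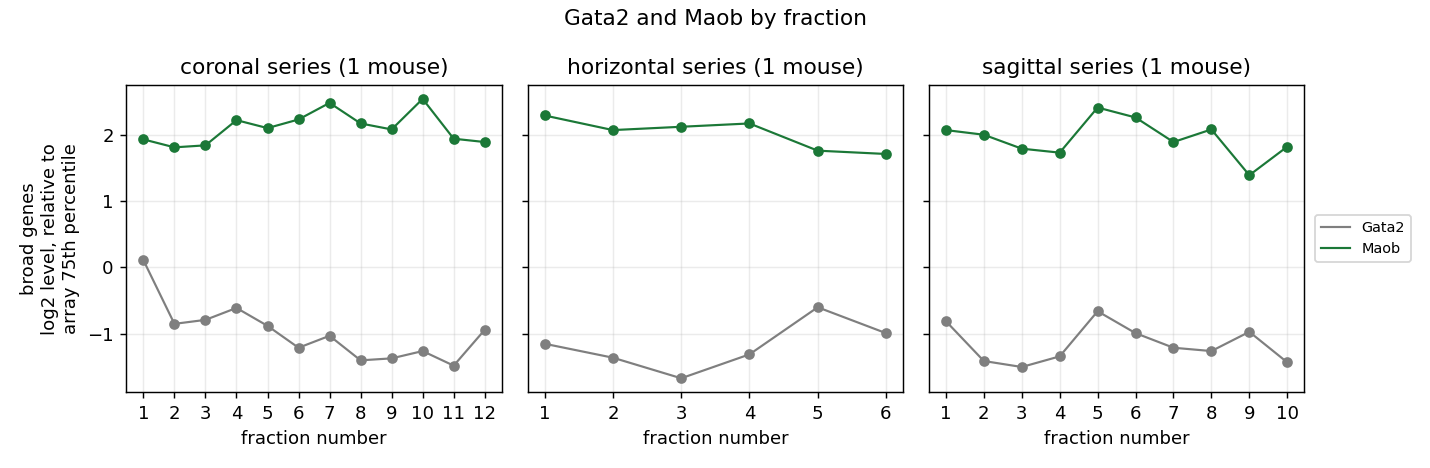
Level of Gata2 and Maob by fraction in the 3 sectioning series, on the log2 scale relative to the 75th percentile of each array, with 1 array per point. All points are well above background. Maob stays within 1.39 to 2.54 and Gata2 within -1.67 to 0.11.

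Dbh, which encodes the enzyme that converts dopamine to noradrenaline, was the locus coeruleus gene that could be measured in every fraction. Its coronal levels were 1.47, 1.42, 0.98 and 2.88 in fractions 1 to 4 and -1.81 in fraction 5, and fractions 6 to 12 ranged from -2.18 to -0.75. Fraction 4 was 25.8-fold over fraction 5. The horizontal levels were -2.14, -2.31 and -2.29 in fractions 1 to 3 and 1.15, 1.02 and -0.09 in fractions 4 to 6. In the sagittal series Dbh was 1.49, 1.14 and 2.01 in fractions 4 to 6, with -0.32 in fraction 7, and the other 6 fractions lay between -2.30 and -0.73. The step from sagittal fraction 3 to fraction 4 was 13.8-fold.

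Slc6a2, the noradrenaline reuptake transporter, passed the background flag in 8 of the 28 fractions, the fewest of the 9 genes. These were coronal fractions 1 (-3.27), 3 (-2.29) and 4 (-0.13), horizontal fractions 4 (-1.95) and 5 (-2.11), and sagittal fractions 4 (-1.81), 5 (-2.19) and 6 (-1.28). Coronal fraction 4 was at least 25.1-fold over fraction 5 and 4.47-fold over fraction 3. Its low fractions reached -7.56 in sagittal fraction 3, below the dimmest well-detected signal of that array (-5.60), where levels have no order.

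Phox2a, the homeodomain factor needed for noradrenaline neurons and also present in some cranial motor neurons, was nearly even over the hindbrain fractions. Its coronal levels were -1.41, -1.66, -2.29 and -1.36 in fractions 1 to 4, and it was not well above background in any of fractions 5 to 12. The step from fraction 4 to fraction 5 was at least 10.7-fold. In the horizontal series it was well above background in fractions 4 to 6 (-3.62, -2.65 and -2.61), and in the sagittal series in fractions 4 to 7 (-1.96, -3.28, -2.36 and -4.04). The 6 cranial motor neuron markers all passed the background flag somewhere in the coronal brain, and their summed level ranged from 3.32 to 11.2 in coronal fractions 1 to 5 and from 0.624 to 6.12 in fractions 6 to 12. Isl1 among them was well above background in coronal fractions 6 to 10 and in none of fractions 1 to 5 (difference -2.52), the reverse of Phox2a. Prph (2.86), Slc18a3 (1.59), Slc5a7 (1.40) and Chat (1.02) were on average higher in fractions 1 to 5, as Phox2a was. Of these and Isl1, only Prph passed with limma (adjusted p = 0.0194). The part of motor neurons in the Phox2a signal was not tested.

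The coronal series was then divided into fractions 1 to 5 and fractions 6 to 12, and all 32364 tested probes were fitted together with limma. Fraction 5 was the last in which Tph2 was well above background, and the division was chosen with earlier results known, so the difference of Tph2 is a description. Tph2, Slc6a2 and Phox2a passed the filter on dim signal in this series through fractions 1 to 5 alone, so that they had to be brighter there. Of the 9 genes, 6 were higher in fractions 1 to 5 at an adjusted p under 0.05, where 2.68% of all probes passed in this direction, and the 6 genes outside these 3 gave 4 of the calls. The count was 2, Tph2 and Slc6a4, when no filter on dim probes was applied. Tph2 averaged -1.78 in fractions 1 to 5 and -5.58 in fractions 6 to 12, a difference of 3.80 ± 0.50 (SE). Slc6a4 differed by 3.92 ± 0.61 (adjusted p = 0.0121) and Phox2a by 3.42 ± 0.83 (adjusted p = 0.0411). Gata3 (2.92, adjusted p = 0.048), Dbh (2.63, adjusted p = 0.0379) and Fev (1.27, adjusted p = 0.0425) were the other three. Slc6a2 (2.64, adjusted p = 0.0977), Gata2 (0.64, adjusted p = 0.0656) and Maob (-0.21, adjusted p = 0.415) did not pass. The median difference of the 9 genes was 2.64, against -0.01 over all probes tested. It is the value of Slc6a2, and it includes Tph2, Slc6a2 and Phox2a, which had to be brighter in fractions 1 to 5. The median is therefore a description without an exact size.

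The size of these differences rested on dim values in fractions 6 to 12. Tph2, Phox2a and Slc6a2 were not well above background in any of those 7 fractions. The first block was therefore at least 4.91-fold higher for Tph2, at least 2.5-fold for Phox2a and at least 1.52-fold for Slc6a2. Within fractions 1 to 5, Phox2a passed the background flag in 4 and Slc6a2 in 3. Slc6a4 was well above background in 1 of the 7, Gata3 in 1 and Fev in 2, while Dbh was well above background in all. With normexp, a background correction that raises dim signals, the differences were 1.36 for Tph2, 1.69 for Slc6a4, 1.17 for Phox2a and 0.97 for Slc6a2. They were 1.15 for Gata3, 0.27 for Fev and 2.19 for Dbh, and Tph2, Slc6a4 and Dbh passed.

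The number of calls changed with the fractions included. The count of 6 genes was 2 when any 1 of coronal fractions 1, 2, 3, 4, 7, 8, 9, 10 or 11 was left out, 3 without fraction 12, 4 without fraction 6 and 7 without fraction 5. Slc6a4 kept its call under each of these omissions. Over the 21 settings run for the coronal blocks, the differences of the 6 genes kept their sign. That of Dbh ranged from 2.15 to 3.35 and that of Fev from 0.27 to 1.38. The 3.35 of Dbh came with fractions 1 to 4 set against fractions 5 to 12. Coronal fractions 1 and 2 were hybridised on one slide with the horizontal series, fractions 3 to 10 on another, and fractions 11 and 12 on another with part of the sagittal series. With slide as an added term, and likewise within the slide of fractions 3 to 10, none of the 9 genes passed with limma, the adjusted p-values running from 0.0583 (Tph2) to 0.415 (Maob) with the slide term. The differences within that slide were 3.91 for Tph2, 4.57 for Slc6a4, 1.07 for Fev, 3.63 for Gata3, 2.30 for Dbh, 3.16 for Slc6a2 and 2.58 for Phox2a, with adjusted p-values from 0.112 to 0.34.

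The blocks were also compared by whether their fractions overlapped. For Tph2, Slc6a4, Fev and Gata2, 4 of the 9 genes, all levels in coronal fractions 1 to 5 lay above those in fractions 6 to 12. This held for 1.87% of all probes. The separation of Tph2 was set beforehand by the division and the filter, so only Slc6a4, Fev and Gata2 can be held against that share. Dbh, Slc6a2 and Phox2a overlapped because of fraction 5, and Gata3 overlapped because fraction 6 (-1.77) lay above fraction 1 (-3.49) and fraction 2 (-2.44).

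**Figure D3:**
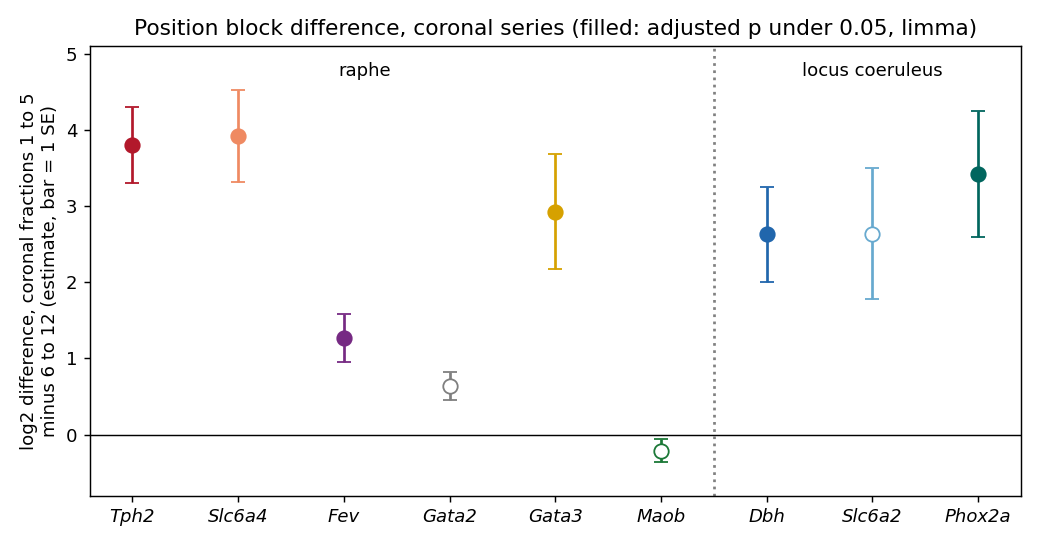
Difference in log2 level between coronal fractions 1 to 5 and 6 to 12 for the 9 genes, as the limma estimate with a bar of 1 SE. Filled points passed at an adjusted p under 0.05. The 6 filled points range from 1.27 (Fev) to 3.92 (Slc6a4), and Maob lies at -0.21.

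A smooth curve over the fraction number, fitted to each probe with limma, asked the broader question of whether a gene varied with position. In the coronal series 6 of the 9 genes passed, where 33.7% of all probes did, namely Tph2 (adjusted p = 0.00969), Slc6a4 (0.012), Fev (0.0254), Gata2 (0.0231), Gata3 (0.000671) and Phox2a (0.012). Dbh had an adjusted p of 0.0508. Along the horizontal axis Gata3 alone passed (adjusted p = 0.024), where 15.8% of all probes did, and in the sagittal series again Gata3 alone (adjusted p = 0.0355), where 14.7% did. The share of members was therefore below that of all probes in both of those planes. With slide as an added term, and within fractions 3 to 10, the coronal count was 1. The horizontal count was 0 without fraction 1, 3, 4 or 6, and the sagittal count was 0 without fraction 1, 2, 4, 5, 6 or 7.

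Horizontal fractions 1 to 3 were set against fractions 4 to 6. No probe of the 32364 passed with limma in either direction, so the background was 0.0% for the lower side, and none of the 9 genes was called, while 7 of them had an unadjusted p under 0.05, as did 710 probes on the lower and 1074 on the higher side. The levels of 7 genes (Tph2, Slc6a4, Fev, Gata3, Dbh, Slc6a2 and Phox2a) in the 3 dorsal fractions were nevertheless all below those in the 3 ventral ones, as for 3.74% of all probes, although Slc6a4, Slc6a2 and Phox2a passed the filter here through ventral fractions alone. Slc6a4 averaged -5.71 and -1.09, a difference of -4.63 ± 0.56, and Phox2a averaged -6.58 and -2.96, a difference of -3.62 ± 0.41. Neither gene was well above background in any dorsal fraction, so the ventral block was at least 9.35-fold higher for Slc6a4 and at least 2.55-fold for Phox2a. With normexp the differences were -1.68 and -0.87, and for Dbh, which was well above background throughout, -2.10 in place of -2.94. Gata2 and Maob overlapped between the blocks.

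Sagittal fractions 5 and 6 were set against the other 8. Again no probe passed with limma (0.0% on the higher side) and none of the 9 genes was called, while 6 had an unadjusted p under 0.05, as did 738 probes on the higher and 1106 on the lower side. The levels of 4 genes (Tph2, Slc6a4, Gata3 and Maob) in fractions 5 and 6 lay above all those of the other 8, as for 5.62% of all probes. For Tph2 the margin was narrow, with -1.99 in fraction 6 and -2.05 in fraction 9, the array on which dim probes stood highest. Slc6a4 averaged 0.13 and -5.10, a difference of 5.23 ± 0.91, and Tph2 -1.18 and -4.48, a difference of 3.30 ± 0.89. Of the other 8 fractions, 2 were well above background for Slc6a4 and 4 for Tph2, and with normexp the differences were 2.25 and 1.27. Dbh, Slc6a2 and Phox2a overlapped because fraction 4 was as high as the middle fractions. Fractions 5 and 6 shared a slide with fractions 7 to 10, and within that slide the differences were 4.51 for Slc6a4, 2.65 for Tph2 and 2.85 for Dbh. When fractions 4 to 6, a grouping chosen after the values were seen, were set against the other 7, no gene passed, and the difference of Dbh, which was well above background throughout, was 2.98.

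The raphe genes were compared with the locus coeruleus genes by role, as synthesis enzymes (Tph2 and Dbh), reuptake transporters (Slc6a4 and Slc6a2) and transcription factors (Fev and Phox2a). Each gene was centred on its mean in the series, and the difference between both genes was taken within each array, where the scaling of the array cancels. Over coronal fractions 1 to 5, in all of which both were well above background, Tph2 minus Dbh was -1.04, 0.52, -0.01, 0.58 and 3.37. The zero of these values rests on a mean that includes dim Tph2 signals, while the steps between them do not. From coronal fraction 4 to fraction 5 Dbh fell 25.8-fold, Slc6a2 at least 25.1-fold and Phox2a at least 10.7-fold, whereas Tph2 was 3.73-fold, Slc6a4 4.09-fold and Fev 1.83-fold lower. Slc6a2 and Phox2a were not well above background in fraction 5, so no exact difference is given for their pairs there. Sagittal fractions 4 and 5 held all 6 genes well above background. Fraction 5 was higher for Tph2 (18.3-fold), Slc6a4 (51.1-fold) and Fev (4.49-fold), while Dbh (-0.35), Slc6a2 (-0.38) and Phox2a (-1.32) had negative log2 differences of fraction 5 minus fraction 4. Coronal fractions 4 and 5 shared a slide. Sagittal fractions 1 to 4 lay on another slide than fractions 5 to 10 and were scanned on another day, so that in the sagittal step position cannot be told apart from slide and scan day. Each of these fractions is 1 array of 1 mouse, so these steps have no replicate.

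Over whole blocks no difference between the genes of a pair passed. The coronal difference between Tph2 and Dbh was higher in fractions 1 to 5 than in fractions 6 to 12 by 1.17 (SDs 1.64 and 1.07 over 5 and 7 fractions), with p = 0.184 in an exact permutation test, two-sided. For Slc6a4 and Slc6a2 it was 1.28 (SDs 2.33 and 1.1, exact permutation p = 0.237). For Fev and Phox2a it was -2.15 (SDs 2.36 and 0.51, exact permutation p = 0.0253). In the sagittal series, with fractions 5 and 6 against the other 8, the 3 values were 0.65, 1.42 and -0.72, with exact permutation p = 0.711, 0.267 and 0.711, where 45 arrangements allow no p below 0.0444. Without sagittal fraction 5 these values were -0.59, 0.23 and -1.82, and without fraction 6 they were 1.89, 2.61 and 0.39. Adjusted over the 6 tests, the p-values were 0.152 for Fev and Phox2a in the coronal series and 0.4 or 0.711 for the others. None passed as measured, which does not show that the genes of a pair change alike. Without coronal fraction 5 the values were 0.50 for Tph2 and Dbh, 0.47 for Slc6a4 and Slc6a2, and -3.20 for Fev and Phox2a, of which the last passed (adjusted p = 0.0364, exact permutation test). In fractions 6 to 12 Phox2a was never well above background and Fev in 2 of 7, so this value is one of dim signals. When values not well above background were raised to the floor of their array, a setting chosen after seeing the data, the 3 coronal values were -0.33, 1.90 and -0.75, and that of Slc6a4 and Slc6a2 passed (adjusted p = 0.0303, exact permutation test). On the same scale without fraction 5 they were -1.0, 1.45 and -1.34, and all passed (adjusted p = 0.0182, 0.0242 and 0.0182, exact permutation test). Tph2, Slc6a2 and Phox2a were not well above background in any of fractions 6 to 12, so this setting fixes their values there. In most of these fractions it puts Slc6a4 and Slc6a2 at the same floor. These tests therefore do not decide whether the genes of a pair differ. The block differences of the pairs thus depended on how dim values were treated. The sign for Tph2 and Dbh turned with another background correction, to -0.84 in the coronal and -0.88 in the sagittal series. In the horizontal series 3 fractions against 3 cannot give a p below 0.1. The differences, dorsal minus ventral, were 0.56 for Tph2 and Dbh, -1.05 for Slc6a4 and Slc6a2, and 2.40 for Fev and Phox2a. Slc6a4, Slc6a2 and Phox2a were not well above background in any dorsal fraction, so the values of their pairs have no exact size.

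**Figure D4:**
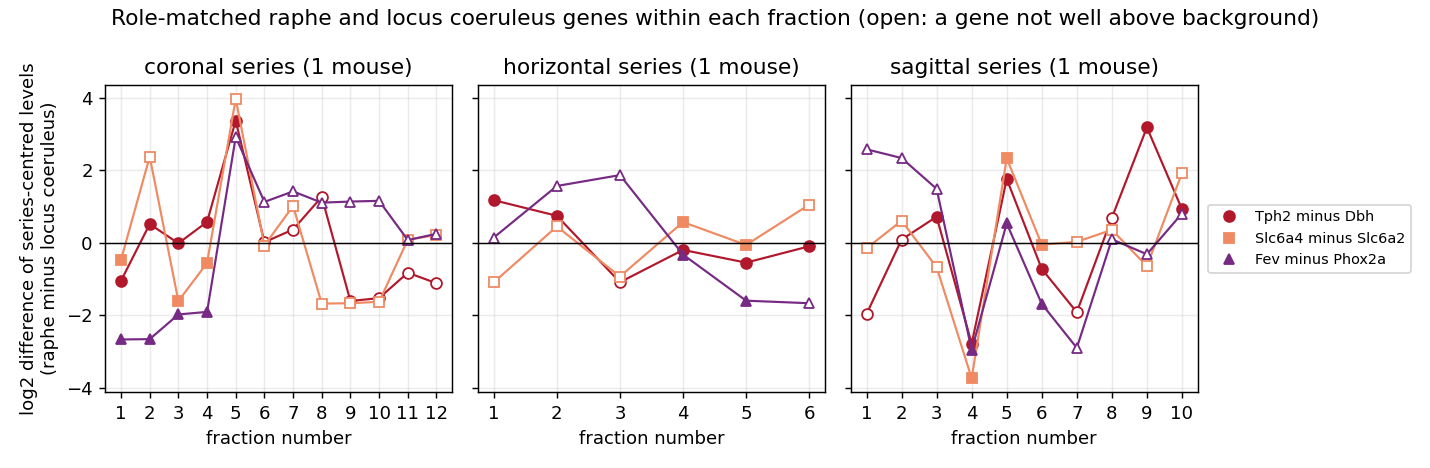
Difference between a raphe gene and the locus coeruleus gene of the same role within each fraction, in log2, after centring each gene on its mean over the series. Each point is 1 array. Filled points have both genes well above background, and open points, where at least 1 is not, have no exact size. Tph2 minus Dbh reaches 3.37 in coronal fraction 5, and all 3 filled points of sagittal fraction 4 lie below 0. The means used for centring include dim values, so filled points of a pair are exact only relative to each other within a series.

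Likeness of profiles was measured as Pearson's r over the 28 fractions, each probe centred on its mean in the series. It is a description of fractions that share brains, slides and neighbouring tissue. The 3 locus coeruleus genes were tightly alike, with r of 0.938 for Dbh and Phox2a, 0.916 for Dbh and Slc6a2 and 0.868 for Slc6a2 and Phox2a. Slc6a2 was well above background in 8 of the 28 fractions and Phox2a in 11. Their r values, and their ranks given below, therefore rest largely on dim values. Among Tph2, Slc6a4, Fev and Gata3 the 6 values ranged from 0.395 to 0.862 with a median of 0.676, and the 12 values between these 4 genes and the locus coeruleus genes ranged from 0.489 to 0.777 with a median of 0.647. With Gata2 and Maob included, the 15 values among the 6 raphe genes had a median of 0.5 and a lowest value of -0.126, and the 18 values between the groups a median of 0.596. Maob had an r of -0.07 with Tph2 and -0.04 with Dbh.

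Out of 15559 named symbols, the 5 most like Tph2 were Slc6a4 (0.862), Lhx4 (0.771), Sync (0.755), Gata3 (0.752) and Gm5458 (0.746). Among those most like Dbh were Phox2a (0.938), Slc6a2 (0.916), Hoxb4 (0.846) and Evx1 (0.833). Phox2a and Slc6a2 thus ranked 1 and 2 for Dbh, and Slc6a4 and Gata3 ranked 1 and 4 for Tph2. Slc6a2 ranked 17 and Dbh 30 in likeness to Tph2, ahead of Fev at 43 and Gata2 at 171. Lhx4 was highest in coronal fraction 5 (-2.54), horizontal fraction 1 (-1.54) and sagittal fraction 9 (-1.78), so it shared only part of the Tph2 pattern. Hoxb4 and Evx1 had their coronal peak in fraction 1, at 1.80 and -0.90.

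**Figure D5:**
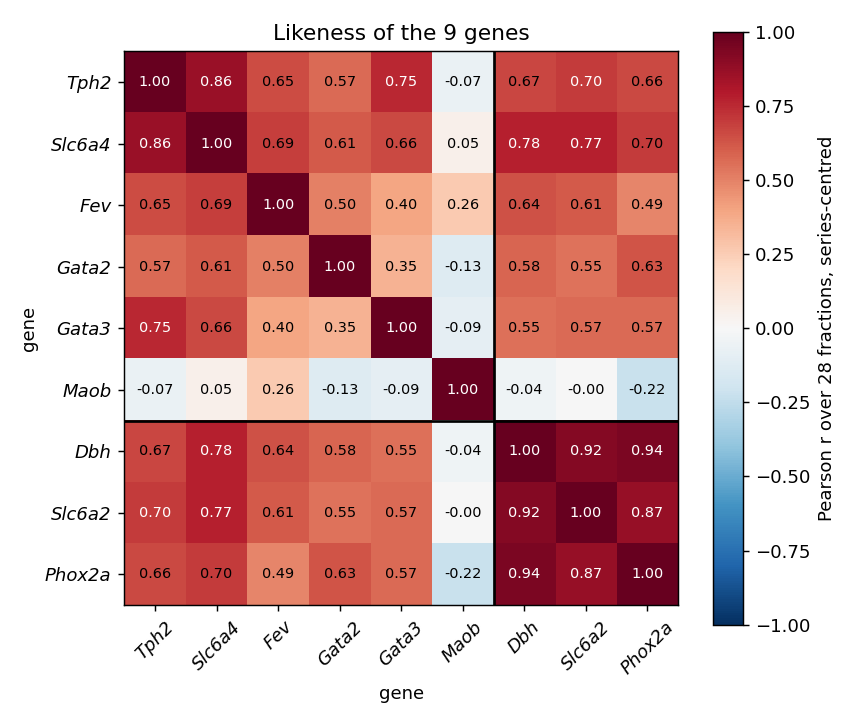
Pearson r between the 9 genes over 28 fractions, each gene centred on its mean in each series. Rows and columns are genes, lines separate raphe from locus coeruleus genes, and colour runs from -1 to 1. The 3 locus coeruleus genes form a block of 0.87 to 0.94, while Maob is near 0 with most genes.

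Serotonin neurons use a set of further genes for cofactor supply, vesicle loading, autoreception and cell identity. Of 20 such partner genes, 18 were tested. Along the coronal axis 11 passed the position curve, against 33.7% of all probes, 2 were higher in fractions 1 to 5, against 2.68%, and 1 was lower, against 1.76%, with a median difference of 0.57 against -0.01 over all probes. Gchfr, the feedback regulator of the enzyme that makes the pterin cofactor, was 3.33 ± 0.44 higher (adjusted p = 0.00685), with 1.92 in fraction 4 and 2.80 in fraction 2. En2, a homeobox gene of the midbrain, pons and cerebellum, was 4.84 ± 0.65 higher (adjusted p = 0.00697), with 3.45, 4.43 and 4.02 in fractions 1 to 3. Insm1, a zinc finger factor of developing neurons, was lower by 1.56 on average (difference -1.56 ± 0.34, adjusted p = 0.0321). Lmx1b, a homeobox factor required by serotonin neurons, stayed between -3.39 and -1.18 on all 28 arrays, with a coronal block difference of 0.08 (adjusted p = 0.886), while its coronal position curve passed (adjusted p = 0.0468), with its highest level in fraction 5 (-1.76). En1 and Slc22a3 were not well above background in any fraction.

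Tph1, the tryptophan hydroxylase of the pineal gland, did not share the Tph2 profile. It was highest in horizontal fraction 1 (1.17) and in coronal fraction 5 (0.33), and it lay between -5.40 and -3.58 over the sagittal fractions. Tph2 was highest in coronal fraction 4 and in horizontal fraction 4 instead. Of the 3 pineal markers, Tph1 and Aanat had a probe and Asmt did not. The summed level of these 2 ranged from 1.2 to 3.69 times the 75th percentile in horizontal fractions 1 to 3. In fractions 4 to 6 it ranged from 0.945 to 1.43. Tph1 had itself served to name the dorsal side, so the sum is a description. Aanat stood at 0.53 in fraction 1 and 0.49 in fraction 6, with a dorsal minus ventral difference of 0.17 (limma, adjusted p = 0.992).

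Of 15 partner genes of noradrenaline neurons, 14 were tested, and 4 of the 15 (Ddc, Slc18a2, Gch1 and Maoa) belong to the serotonin list as well. In the coronal brain 10 passed the position curve, against 33.7% of all probes, and 4 were higher in fractions 1 to 5, against 2.68%, and 0 lower, against 1.76%, with a median difference of 0.71 against -0.01 over all probes. Tfap2b, Ret and Calca were among the 4. Tfap2b, a factor of noradrenaline neurons that is also present in the cerebellum, was 3.64 ± 0.48 higher (adjusted p = 0.00685). Ret, the receptor of glial cell line-derived factors, was 1.64 higher (adjusted p = 0.0297) and Calca, the gene of calcitonin gene-related peptide, 1.76 higher (adjusted p = 0.0181).

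The steps that both transmitters share had broader profiles. Slc18a2, the vesicular monoamine transporter, was highest in coronal fractions 4 and 5 (1.25 and 1.19), horizontal fraction 5 (1.19) and sagittal fraction 5 (1.40), and Ddc, the decarboxylase, in coronal fraction 5 (3.97), horizontal fraction 5 (3.91) and sagittal fraction 5 (3.78). Their coronal position curves passed (adjusted p = 0.00653 and 0.00546). Th, the tyrosine hydroxylase used for both dopamine and noradrenaline, was instead highest in coronal fraction 12 (6.63), where Dbh was at -2.14, and it stood at 4.07 in fraction 5, where the dopamine transporter gene Slc6a3 was highest.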

How the data were processed

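Each fraction was 100 sections of 5 micron per the labels, a thickness on which the study's own description of the 3-week brains differs, and fractions are therefore located by number alone. The authors hybridised Cy3-labelled RNA to 1-colour Agilent arrays and deposited, per the file headers, intensity values extracted with Feature Extraction 10.5.1.1. A deposited table of log2 values for 44721 probes holds these signals after 75th percentile scaling, with a small offset per array. Here outlier spots (108 to 176 per array) were left out, spots of a probe were averaged, and levels were scaled the same way. The 75th percentile of signal ran from 135.2 to 573.5, and no spot was saturated. A probe was tested (32364 of 55681) if every series had a fraction in which it was well above background, and 27235 probes were named through RefSeq.

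limma 3.58.1 in R 4.3.3 fitted natural splines (3 degrees of freedom, 2 in the horizontal series) and position blocks, with Benjamini-Hochberg adjustment over all probes and a threshold of 0.05. Raphe and locus coeruleus genes were compared by exact permutation tests. The fits were tested on simulated data. The members, lists and blocks were chosen with earlier results of these data known. Besides the 9 members and the landmark genes, at most 4 genes of a list past the coronal threshold, with the largest differences, were to be named. The 5 symbols most like Tph2 and Dbh were to be named too. Lmx1b, Tph1, Ddc, Slc18a2, Th, Tal1, Tal2, Zfpm2, Gad2, Sox14, Isl1 and the list genes without a signal were added after their values were seen. So were Prph, Chat, Slc18a3, Slc5a7, Aqp4, Gfap, Slc1a3, Aldh1l1, Aldoc and Aanat. A gene that this rule would name is not reported here. Alternatives were other scalings, normexp (offset 50) on the median foreground and background, the authors' log2 table, no filter, slide terms and left-out fractions. Other divisions of the coronal and sagittal fractions into blocks were run as well.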

Additional observations from a re-analysis of the deposited data

How the results depend on the processing

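The count of genes with a coronal position curve (6) was 1 with slide as an added term, 1 within fractions 3 to 10, and 5 to 7 when each fraction was left out in turn. The horizontal count (1) was 4 with array median scaling, 2 with quantile normalization, 2 with normexp and 0 with 1 degree of freedom fewer, and 0 to 1 when each fraction was left out. The sagittal count (1) was 0 with normexp, 0 with slide added, 0 within 1 slide, 0 without fractions 1 and 9 together (chosen after seeing the data), and 0 to 1 with each fraction left out. The count of genes higher in coronal fractions 1 to 5 (6) was 3 with normexp, 2 with no filter on dim probes, 0 with slide added, 0 within 1 slide, and 2 to 7 with each fraction left out. The sagittal block count (0) was 1, Slc6a4, with array median scaling. The count of pairs in the coronal series (0) was 0 to 1 with each fraction left out, and 1 with dim values raised to the array floor (chosen after seeing the data), where Tph2 and Dbh reversed to -0.33 and Fev and Phox2a in the sagittal series to 0.12. The difference of Tph2 and Dbh reversed with normexp to -0.84 (coronal) and -0.88 (sagittal), and ranged from -0.59 (without fraction 5) to 1.89 (without fraction 6) when each sagittal fraction was left out, that of Slc6a4 and Slc6a2 from 0.23 to 2.61 without the same fractions, and that of Fev and Phox2a from -1.82 (without fraction 5) to 0.39 (without fraction 6). The other counts, 57 with a fraction left out and 41 under other settings, stayed within 1.5 times their main value. Causes were not tested. Fewer fractions leave fewer degrees of freedom, and the part of this in the counts was not tested either. Array median scaling moved the median block difference of all probes from 0.05 to 0.20 in the horizontal and from -0.07 to 0.30 in the sagittal series. The mean of all probes of a gene was not run, since each gene has 1 probe. No paired analysis was possible because fraction numbers are positions along different axes of different mice. Dim probes, 1 mouse per plane and 1 array per position limit all values.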
